A study of Homo sapiens with 6 samples.

Results

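The mRNAs of 55 genes of DNA replication and nucleotide synthesis were compared between QBC-939 cells given an shRNA against BMI1 and QBC-939 cells given a scrambled shRNA. The genes were picked by symbol, with no measured value in the rule, and each had 1 of the 27238 rows of the table. They comprise 12 genes of the replicative helicase, 9 of the polymerases and primase, 6 of the sliding clamp and its loader, 7 of origin licensing, 2 of the kinase that fires origins, 5 that act on single strands and Okazaki fragments, 2 of DNA methylation upkeep, and 12 of nucleotide supply (5 for deoxynucleotides, 4 for purines, 3 for pyrimidines). QBC-939 is labelled a human cholangiocarcinoma (bile duct cancer) cell line. The Bmi1 shRNA group and the control group held 3 libraries each, all taken 48 h after treatment and described as separate transfections of the same line. The labels call the control reagent a scrambled shRNA in one place and siRNA in another, and do not give how many shRNA sequences were used. The extraction text mentions adipose RNA, which the marker levels given below bear on.

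Each origin of replication is licensed when the origin recognition complex (ORC), CDC6 and CDT1 load the ring of MCM2 to MCM7 onto DNA. The kinase CDC7 with its partner DBF4 then acts on the ring, and CDC45 and the GINS complex join it to make the active helicase. Primase and DNA polymerase alpha start each strand, polymerases delta and epsilon extend it, and the clamp PCNA, loaded by the RFC complex, holds the polymerases on DNA. Ribonucleotide reductase and the purine and pyrimidine pathways supply the building blocks. Many of these genes are transcribed at the border of G1 and S phase by E2F factors, and their mRNAs are used as markers of proliferating cells. BMI1 is a Polycomb protein whose best known target is CDKN2A, an inhibitor of the step at which E2F factors are released.

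Levels are in FPKM (fragments scaled to transcript length and to the mapped fragments of the library), so different genes can be set side by side per length. Fold changes and their standard errors (SE) are on the log2(FPKM + 1) scale, Bmi1 shRNA minus control, which understates changes of low genes. A gene was called at an adjusted p under 0.05 in limma (Benjamini-Hochberg, over all 11016 genes with a mean of at least 1 FPKM), and "rose" and "fell" are used only of called genes. All 55 members passed that filter, DBF4 and POLA1 only through the Bmi1 shRNA libraries, at mean levels between 1.05 FPKM (POLA1) and 174 FPKM (PCNA). FPKM is a relative scale, so fewer cells in S phase and less mRNA of a gene per cell cannot be told apart, nor can a change in total mRNA per cell be seen. P-values measure the spread between these 3 and 3 libraries.

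BMI1 measured 1.49, 1.19 and 2.65 FPKM in Bmi1 shRNA libraries, against 6.65, 5.34 and 6.09 FPKM in control libraries, 29.5% of the control mean (limma, adjusted p = 0.00162; exact two-sided permutation p = 0.1, the lowest value possible with 3 libraries a group). FPKM of a library summed to between 352800 and 360371 with Bmi1 shRNA and between 332910 and 341268 in controls. All 6 markers of bile duct cells averaged above 1 FPKM, led by KRT19 (249 FPKM) and EPCAM (167 FPKM), with KRT7 lowest (2.77 FPKM), and summed to between 420.4 and 478 FPKM with Bmi1 shRNA and between 509 and 527 FPKM in controls. Of 4 hepatocyte markers with a row, SERPINA1 averaged 185 FPKM and TTR 12.4 FPKM, while CYP3A4 and APOA1 averaged 0.01 and 0.143 FPKM. That list summed to between 228 and 239.7 FPKM with Bmi1 shRNA and between 156 and 166 FPKM in controls. Of fibroblast and endothelial markers with a row (2 of 5 and 2 of 3) none averaged 1 FPKM, and neither did PLIN1, the sole adipocyte marker of 4 with a row. CD68, 1 of 2 immune markers with a row, averaged 9.51 FPKM. The part of these shifts in the results below was not tested.

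The members were called in both directions, as tested genes were at large. Of the 55 members, 14 were called higher, 23 fell and 18 were not called. DBF4 and POLA1, among the 14, passed the filter only through the Bmi1 shRNA libraries. With them counted, 25.5% rose and 41.8% fell, where 28.6% of all tested genes rose and 28.5% fell (57.1% in either direction). The share that rose was close to the background and the share that fell was above it; no test was made of the set. The median log2 fold change of members was -0.11, against -0.02 over all tested genes. MCM6, a helicase subunit, and RRM1, the large subunit of ribonucleotide reductase, rose at least 2-fold on the log2(FPKM + 1) scale, as 1.92% of tested genes did. No member fell that far on this scale (0.436% of tested genes did). UHRF1, which brings the methyltransferase DNMT1 to newly made DNA, came nearest with a log2 fold change of -0.98. In FPKM its mean with Bmi1 shRNA was 48.8% of the control mean. By ratio of mean FPKM, ORC3 (2.49), DBF4 (2.09) and PRIM1 also reached 2-fold, and ORC3 passed MCM6 (2.43). How many tested genes reached 2-fold by that ratio was not counted. The libraries of the groups did not overlap for 40 members, 14 higher (DBF4 and POLA1 included) and 26 lower with Bmi1 shRNA. Over all tested genes 32.3% were higher and 33.1% lower without overlap (65.4% in either direction).

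**Figure D1:**
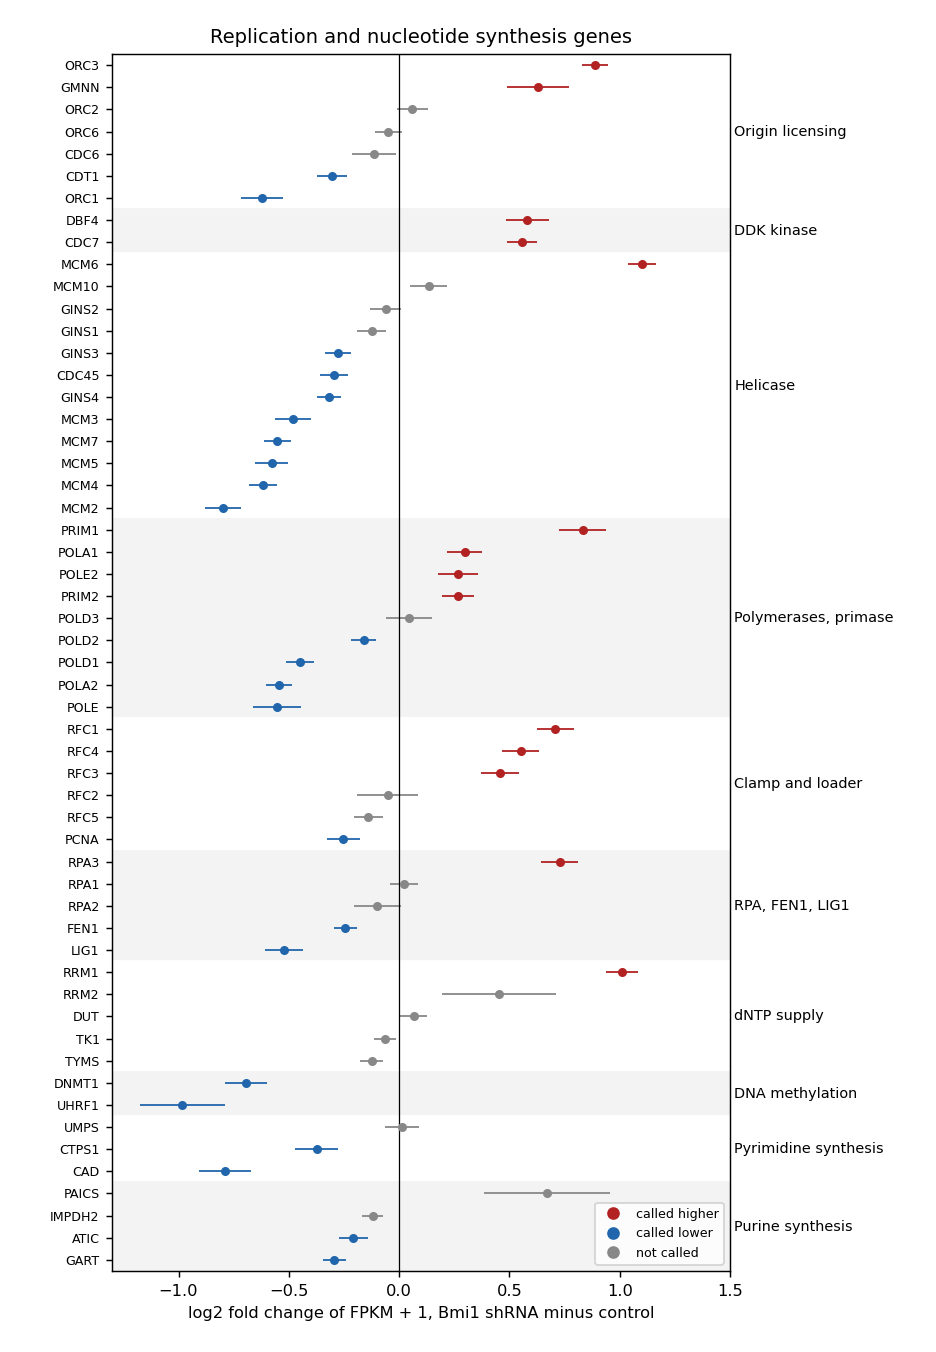
Log2 fold change (Bmi1 shRNA minus control, log2(FPKM + 1) scale, horizontal axis) of each of the 55 members, ordered within 10 groups by role; points are estimates, bars are 1 SE, red and blue mark genes called higher and lower. Both directions occur within most groups, and MCM6 (1.10) and UHRF1 (-0.98) are the extremes on this scale.

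Most of the helicase genes that were called fell, and MCM6 rose. Of the 12, 8 fell, 1 rose and 3 were not called, and the median log2 fold change was -0.31. Thus 66.7% fell and 8.33% rose, against 28.5% and 28.6% of all tested genes. Of the 6 ring subunits, 5 made up most of the falls. MCM2 measured 31.2, 31.2 and 36.4 FPKM with Bmi1 shRNA, against 54.2, 59.3 and 60.1 FPKM in controls, with no overlap (log2 fold change -0.80, SE 0.08; limma, adjusted p = 0.000587). MCM7, the most abundant subunit, measured 71.4, 76.1 and 79.4 FPKM with Bmi1 shRNA, against 107, 116 and 111 FPKM in controls (log2 fold change -0.55, SE 0.06; limma, adjusted p = 0.000714). MCM4 measured 17.4, 15.2 and 16.4 FPKM with Bmi1 shRNA, against 25.6, 25.8 and 25.3 FPKM in controls. Every Bmi1 shRNA library lay below every control library for these subunits, and the same held for MCM3 and MCM5. MCM3 averaged 34.9 ± 1.60 FPKM with Bmi1 shRNA and 49.3 ± 4.78 FPKM in controls, and MCM5 9.04 ± 0.846 and 14.0 ± 0.400 FPKM (SD, n = 3 each).

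MCM6 went the other way. It measured 9.77, 9.41 and 9.64 FPKM with Bmi1 shRNA, against 4.21, 3.96 and 3.66 FPKM in controls, a ratio of means of 2.43 (log2 fold change 1.10, SE 0.06; limma, adjusted p = 0.000228). It was the lowest of the 6 subunits in every control library. Its share of the summed FPKM of MCM2 to MCM7 was 5.71, 5.29 and 5.16% with Bmi1 shRNA, against 1.68, 1.45 and 1.40% in controls. MCM7 kept a like share of that sum, 42.4% ± 0.552 with Bmi1 shRNA and 42.5% ± 0.271 in controls (SD, n = 3 each). The sum itself was 171, 178 and 187 FPKM with Bmi1 shRNA, against 250.2, 274 and 262 FPKM in controls. The highest subunit was 8.85, 8.09 and 8.34 times the lowest with Bmi1 shRNA, against 25.4, 29.2 and 30.3 times in controls. That narrower range came with the rise of MCM6, the lowest subunit in controls. MCM5, the next lowest there, had a share of 5.06% ± 0.326 with Bmi1 shRNA and 5.33% ± 0.127 in controls (SD, n = 3 each).

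**Figure D2:**
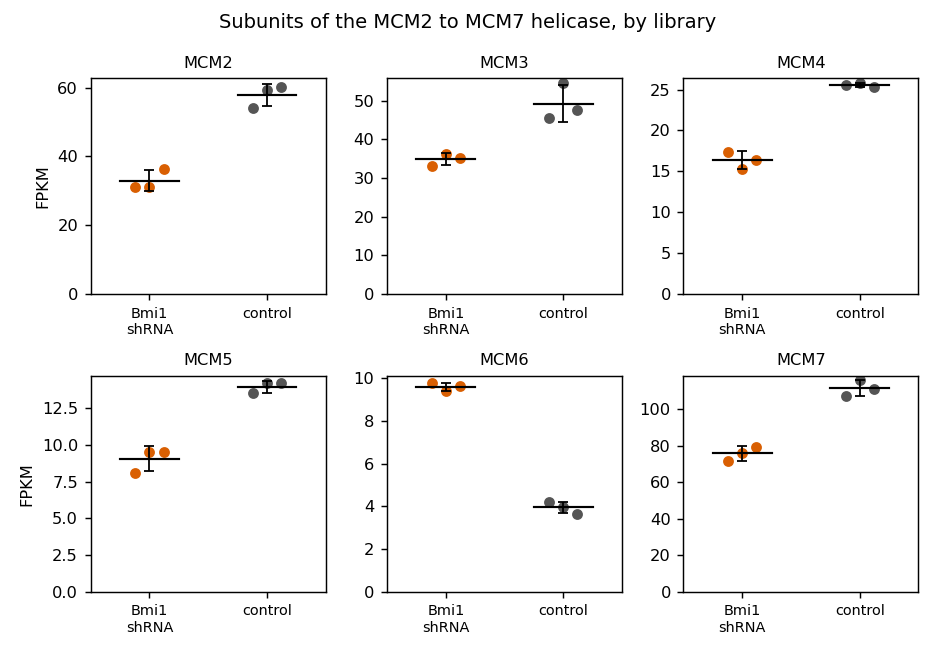
FPKM (vertical axis, from 0) of each subunit of the MCM2 to MCM7 ring in 3 Bmi1 shRNA and 3 control libraries; points are libraries, lines and bars are the mean and SD. MCM6 is higher in all 3 Bmi1 shRNA libraries (9.41 to 9.77 against 3.66 to 4.21 FPKM), and the other subunits are lower.

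The partners of the ring were lower where they were called. CDC45 measured 57.7, 53.3 and 50.3 FPKM with Bmi1 shRNA, against 64.3, 66.3 and 67.9 FPKM in controls (log2 fold change -0.30, SE 0.06; limma, adjusted p = 0.00819). Of the GINS subunits, GINS3 and GINS4 fell, to 81.2% and 70.8% of the control mean. GINS1 averaged 9.24 ± 0.494 FPKM with Bmi1 shRNA and 10.2 ± 0.529 FPKM in controls, and GINS2 24.5 ± 1.86 and 25.6 ± 0.848 FPKM (SD, n = 3 each); neither was called. MCM10, which helps to start the helicase, was not called either, at 1.89 ± 0.267 FPKM with Bmi1 shRNA and 1.62 ± 0.0401 FPKM in controls (SD, n = 3 each). The helicase genes had a median transcript GC content of 48.8%, against 50.4% over tested genes. Among the subunits of the ring the median was 54.1%, with MCM6 lowest at 43.1% and MCM2 highest at 58.1%. When the trend of fold change with GC content and length (described below) was removed, 8 were lower and 1, MCM6, higher. GINS4 was then not called (limma, adjusted p = 0.0567) and GINS1 was (log2 fold change -0.43). CDC45 and GINS3 lost their call when a term for replicate number (the replicate block) was added to that fit (limma, adjusted p = 0.087 and 0.0514). MCM3 lost its call when median GC content over transcripts was used (log2 fold change -0.22, limma, adjusted p = 0.0573). GINS4 was called lower in that version (-0.19, limma, adjusted p = 0.0244).

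Promoters of the called members with the largest change in the helicase, polymerase, clamp, deoxynucleotide, purine and pyrimidine groups, and of MCM2 as the largest fall beside the rise of MCM6, are shown because genes of opposite direction can then be set side by side. Each runs from 250 bases before to 50 after the RefSeq start (GRCh38.p14), 5′ to 3′ on the gene's strand. Capitals mark every match, on either strand, to TTTCGCGC or TTTGGCGC (letters bound by E2F factors), CCAAT (NF-Y), CACGTG (E-box) and TTTGAA (the CHR element of cell cycle genes). Matches can overlap: in MCM6 and MCM2 the 12 capitals that start with TTT and end with GAAA hold a pair of E2F matches on opposite strands.
MCM6, chr2:135876394-135876693, reverse strand: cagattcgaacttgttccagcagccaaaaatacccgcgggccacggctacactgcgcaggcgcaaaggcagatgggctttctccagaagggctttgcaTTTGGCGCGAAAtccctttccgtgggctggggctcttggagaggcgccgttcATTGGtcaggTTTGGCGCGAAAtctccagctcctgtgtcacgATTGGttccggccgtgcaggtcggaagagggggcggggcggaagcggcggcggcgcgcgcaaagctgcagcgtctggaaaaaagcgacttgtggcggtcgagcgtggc
MCM2, chr3:127598161-127598460, forward strand: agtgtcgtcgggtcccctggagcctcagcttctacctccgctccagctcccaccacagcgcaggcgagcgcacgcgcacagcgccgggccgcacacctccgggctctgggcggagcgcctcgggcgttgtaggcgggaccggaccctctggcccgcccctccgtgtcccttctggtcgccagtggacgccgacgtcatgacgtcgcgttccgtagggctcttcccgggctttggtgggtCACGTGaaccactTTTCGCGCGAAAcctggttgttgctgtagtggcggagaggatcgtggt
PRIM1, chr12:56752274-56752573, reverse strand: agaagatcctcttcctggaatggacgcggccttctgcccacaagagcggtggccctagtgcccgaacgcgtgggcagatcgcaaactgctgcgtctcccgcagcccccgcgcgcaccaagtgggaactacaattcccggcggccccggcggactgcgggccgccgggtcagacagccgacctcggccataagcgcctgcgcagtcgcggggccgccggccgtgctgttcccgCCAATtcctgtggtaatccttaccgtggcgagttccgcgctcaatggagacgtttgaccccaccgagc
RFC1, chr4:39366313-39366612, reverse strand: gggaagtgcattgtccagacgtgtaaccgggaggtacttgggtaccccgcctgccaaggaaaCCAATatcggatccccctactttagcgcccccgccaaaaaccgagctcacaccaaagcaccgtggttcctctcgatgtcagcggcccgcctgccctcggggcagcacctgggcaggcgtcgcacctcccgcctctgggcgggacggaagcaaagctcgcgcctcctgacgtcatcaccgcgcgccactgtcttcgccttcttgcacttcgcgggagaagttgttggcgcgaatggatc
RRM1, chr11:4094435-4094734, forward strand: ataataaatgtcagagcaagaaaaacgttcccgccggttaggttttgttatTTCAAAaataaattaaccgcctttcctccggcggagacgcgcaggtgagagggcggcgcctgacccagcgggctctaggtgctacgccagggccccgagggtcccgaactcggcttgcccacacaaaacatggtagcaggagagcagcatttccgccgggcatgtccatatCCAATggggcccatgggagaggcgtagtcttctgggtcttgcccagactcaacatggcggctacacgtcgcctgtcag
GART, chr21:33542843-33543142, reverse strand: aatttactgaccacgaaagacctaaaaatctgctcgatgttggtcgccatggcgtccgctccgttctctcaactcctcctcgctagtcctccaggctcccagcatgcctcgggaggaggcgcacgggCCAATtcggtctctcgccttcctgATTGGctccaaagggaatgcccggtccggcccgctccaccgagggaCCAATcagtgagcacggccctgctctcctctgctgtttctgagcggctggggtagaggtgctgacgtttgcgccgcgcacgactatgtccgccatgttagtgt
CAD, chr2:27217119-27217418, forward strand: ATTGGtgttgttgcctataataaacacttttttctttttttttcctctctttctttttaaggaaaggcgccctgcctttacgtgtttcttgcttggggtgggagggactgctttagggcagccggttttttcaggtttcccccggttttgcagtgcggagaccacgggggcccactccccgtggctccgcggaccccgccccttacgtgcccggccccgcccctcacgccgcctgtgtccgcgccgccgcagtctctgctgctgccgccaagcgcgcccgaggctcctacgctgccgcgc
Such a pair of matches occurred once in the promoter of MCM2, which fell, and at 2 places in that of MCM6, which rose. Either E2F form was found in 11 of the 48 members with a promoter in the RefSeq table, 22.9%, against 1.15% of all 35116 promoters of that length. The 11 were CDC6, DNMT1, GINS1, MCM2, MCM3, MCM6, MCM7, POLA1, POLA2, POLE and POLE2. They comprised 3 of 13 members that rose, 6 of 20 that fell and 2 of 15 that were not called. CCAAT was found in 52.1% of member promoters and 34.6% of all, CACGTG in 12.5% and 7.26%, and TTTGAA in 6.25% and 15.2%. A match describes the letters only, and where a gene has several listed starts the first was used.

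Origin licensing genes moved in both directions. ORC3, a subunit of the origin recognition complex, measured 3.40, 3.42 and 3.14 FPKM with Bmi1 shRNA, against 1.31, 1.33 and 1.36 FPKM in controls (log2 fold change 0.89, SE 0.06; limma, adjusted p = 0.000252). ORC1, the subunit that comes and goes with the cell cycle in human cells, fell: it measured 7.85, 6.52 and 8.35 FPKM with Bmi1 shRNA, against 11.5, 12.9 and 12 FPKM in controls (log2 fold change -0.62, SE 0.10; limma, adjusted p = 0.0023). The groups did not overlap for either gene. ORC2 (3.48 ± 0.0280 with Bmi1 shRNA and 3.31 ± 0.314 FPKM in controls; SD, n = 3 each) and ORC6 (7.84 ± 0.488 and 8.14 ± 0.0964 FPKM) were not called. The ratio of the highest to the lowest of these 4 ORC mRNAs was 2.31, 2.46 and 2.66 with Bmi1 shRNA, against 8.75, 9.68 and 8.86 in controls.

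CDT1, the loader of the MCM ring, and GMNN, which encodes geminin, the inhibitor that binds CDT1, moved apart. CDT1 measured 29.9, 32.8 and 32.7 FPKM with Bmi1 shRNA, against 36.8, 41.6 and 40.2 FPKM in controls (limma, adjusted p = 0.00959). GMNN measured 13.3, 11.0 and 8.76 FPKM with Bmi1 shRNA, against 7.26, 6.31 and 6.49 FPKM in controls (limma, adjusted p = 0.00926). The Bmi1 shRNA libraries of GMNN spread widely, yet the lowest stood above all controls. CDT1 mRNA was 2.25, 2.99 and 3.74 times that of GMNN with Bmi1 shRNA, against 5.07, 6.58 and 6.19 times in controls. CDC6, which works with CDT1, was not called (6.28 ± 0.286 FPKM with Bmi1 shRNA and 6.91 ± 1.01 FPKM in controls; SD, n = 3 each). After removal of the GC content and length trend, CDT1 (-0.05, limma, adjusted p = 0.494) and GMNN (0.10, limma, adjusted p = 0.547) lost their calls, while ORC3 (0.42) and ORC1 (-0.40) kept theirs. With median GC content over transcripts CDT1 (-0.24, limma, adjusted p = 0.0128) and CDC6 (-0.33, limma, adjusted p = 0.0367) were called lower, and GMNN was not called (limma, adjusted p = 0.384).

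Both genes of the kinase that fires origins were called higher, though DBF4 reached a mean of 1 FPKM only through the Bmi1 shRNA libraries, where it is high, so its call is a description. CDC7, its catalytic subunit, measured 2.58, 2.81 and 2.75 FPKM with Bmi1 shRNA, against 1.55, 1.66 and 1.37 FPKM in controls (log2 fold change 0.56, SE 0.07; limma, adjusted p = 0.00112). DBF4, its activating partner, measured 1.68, 1.5 and 2.13 FPKM with Bmi1 shRNA, against 0.819, 0.789 and 0.932 FPKM in controls (log2 fold change 0.58, SE 0.10; limma, adjusted p = 0.00312). Both are low mRNAs with transcripts poor in GC (39.1% and 40.1%), and once the GC content and length trend was removed both lost their calls, CDC7 at 0.13 and DBF4 at 0.24 (limma, adjusted p = 0.115 and 0.0911).

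Among polymerase and primase genes 4 were called higher, 4 fell and 1 was not called. That is 44.4% in each direction, where 28.6% of all tested genes rose and 28.5% fell. POLA1, among those called higher, passed the filter only through the Bmi1 shRNA libraries. The directions crossed within complexes. In the complex of polymerase alpha and primase, PRIM1, the catalytic primase subunit, measured 6.16, 7.03 and 7.76 FPKM with Bmi1 shRNA, against 4.02, 3.18 and 3.26 FPKM in controls (log2 fold change 0.83, SE 0.11; limma, adjusted p = 0.00121). POLA2, the accessory subunit of polymerase alpha, measured 7.58, 7.13 and 6.92 FPKM with Bmi1 shRNA, against 10.6, 10.9 and 11.4 FPKM in controls (log2 fold change -0.54, SE 0.06; limma, adjusted p = 0.000762). POLA2 thus made up 41.2% ± 2.83 of the summed FPKM of the 4 subunits with Bmi1 shRNA and 65.1% ± 2.82 in controls (SD, n = 3 each), at sums of 17.5 ± 0.389 and 16.9 ± 0.367 FPKM. POLA1, the catalytic polymerase subunit, was called higher at 1.26 ± 0.127 FPKM with Bmi1 shRNA, against 0.842 ± 0.128 FPKM in controls, and PRIM2, the large primase subunit, rose to 2.07 ± 0.193 FPKM, against 1.55 ± 0.102 FPKM (SD, n = 3 each).

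The replicative polymerases proper were lower where called, apart from a small rise of POLE2. POLE, the catalytic subunit of polymerase epsilon, measured 2.13, 1.92 and 2.57 FPKM with Bmi1 shRNA, against 3.30, 4.24 and 3.56 FPKM in controls (log2 fold change -0.55, SE 0.11; limma, adjusted p = 0.00541). Its partner POLE2 averaged 1.59 ± 0.188 FPKM with Bmi1 shRNA and 1.15 ± 0.178 FPKM in controls (SD, n = 3 each; limma, adjusted p = 0.0415). POLD1, the catalytic subunit of polymerase delta, fell to 13.1 ± 0.782 FPKM with Bmi1 shRNA, against 18.3 ± 0.673 FPKM in controls. POLD2 fell to 34.6 ± 0.925 FPKM, against 38.9 ± 1.89 FPKM, and POLD3, another subunit, was not called at 1.86 ± 0.133 and 1.79 ± 0.355 FPKM (SD, n = 3 each).

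POLA1 reached a mean of 1 FPKM only through the Bmi1 shRNA libraries, and with no filter on low values it was not called (limma, adjusted p = 0.0553). The smaller calls of this group were fragile, and its median, 0.04, took the opposite sign with libraries scaled to one total (-0.014), quantile normalized (-0.018) or without control replicate 3 (-0.056); it was 0.0076 without Bmi1 shRNA replicate 1 and 0.13 without control replicate 2. Leaving out Bmi1 shRNA replicate 3 or control replicate 2 or 3 ended the call of POLA1 (limma, adjusted p = 0.0511, 0.0541 and 0.0635). PRIM2 lost its call without Bmi1 shRNA replicate 1 or 2 or control replicate 1 or 2 (0.0596 to 0.0669), and POLE2 without Bmi1 shRNA replicate 1 or 2 or control replicate 2 or 3 (0.0799 to 0.12). POLD2 lost it without any 1 of the 6 libraries (0.0531 to 0.14). The group had a median GC content of 43.7%, from 40.1% for PRIM1 to 65.0% for POLD1. Once GC content and length were accounted for, 1 was higher (POLA1) and 2 lower (POLA2 and POLD1). PRIM1 was not called there (log2 fold change 0.12, limma, adjusted p = 0.401) and was with median GC content over transcripts (0.37, limma, adjusted p = 0.0221). POLA1, POLA2 and POLD1 lost their call when the replicate block was added to the removal (limma, adjusted p = 0.0702 to 0.11).

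The clamp and its loader diverged. PCNA, the clamp and the most abundant member, measured 162, 173 and 143 FPKM with Bmi1 shRNA, against 193, 187 and 188 FPKM in controls (log2 fold change -0.25, SE 0.08; limma, adjusted p = 0.0275). RFC1, the large loader subunit, measured 3.38, 3.73 and 4.0 FPKM with Bmi1 shRNA, against 1.82, 2.13 and 1.69 FPKM in controls (log2 fold change 0.71, SE 0.09; limma, adjusted p = 0.000989). RFC4 measured 6.50, 7.64 and 6.35 FPKM with Bmi1 shRNA, against 4.32, 4.63 and 4.06 FPKM in controls (limma, adjusted p = 0.00222). All Bmi1 shRNA libraries stood above all controls for RFC1, RFC4 and RFC3, and below them for PCNA. RFC3 averaged 6.88 ± 0.626 FPKM with Bmi1 shRNA and 4.74 ± 0.398 FPKM in controls (SD, n = 3 each). The small subunits RFC2 (31.2 ± 1.16 and 32.8 ± 6.98 FPKM) and RFC5 (11.2 ± 0.337 and 12.4 ± 0.890 FPKM) were not called. RFC2 stood at 40.8 FPKM in control replicate 1 and at 28.5 and 28.9 FPKM in the other controls. The median of the 6 genes was 0.20 in the deposited values, 0.31 without control replicate 1, 0.14 without control replicate 2, and -0.032 after removal of the GC content and length trend.

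PCNA lost its call without Bmi1 shRNA replicate 1 or without any 1 control library (limma, adjusted p = 0.0553 to 0.0742). Without the trend of GC content and length, its log2 fold change was -0.63 (limma, adjusted p = 0.000845). Its transcript had a GC content of 45.3%. RFC1 remained called there (0.51, limma, adjusted p = 0.00314), and RFC3 and RFC4 did not (-0.04 and 0.21, limma, adjusted p = 0.662 and 0.0684). With median GC content over transcripts RFC4 was called higher (0.30, limma, adjusted p = 0.0238), and RFC3 was not called (0.18, limma, adjusted p = 0.113).

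Of the single-strand binding complex RPA, only the small subunit was called in the deposited values. RPA3 measured 16.4, 16.6 and 14.5 FPKM with Bmi1 shRNA, against 9.86, 8.31 and 9.34 FPKM in controls (log2 fold change 0.73, SE 0.08; limma, adjusted p = 0.000855). RPA1 (17.7 ± 1.17 with Bmi1 shRNA and 17.4 ± 0.253 FPKM in controls; SD, n = 3 each) and RPA2 (35.0 ± 5.12 and 37.3 ± 0.700 FPKM) were not called. RPA3 made up 23.1% ± 0.546 of the summed FPKM of the 3 subunits with Bmi1 shRNA and 14.4% ± 1.02 in controls (SD, n = 3 each). FEN1, the flap nuclease that trims Okazaki fragments, and LIG1, the ligase that joins them, fell. FEN1 measured 66.4, 65.8 and 61.1 FPKM with Bmi1 shRNA, against 76.0, 75.3 and 78 FPKM in controls. LIG1 measured 5.43, 4.98 and 6.28 FPKM with Bmi1 shRNA, against 8.11, 8.73 and 8.34 FPKM in controls (log2 fold change -0.52, SE 0.08; limma, adjusted p = 0.00273). After the same removal, RPA3 and LIG1 were called as before, FEN1 was not (limma, adjusted p = 0.346), and RPA1 was higher (0.22, limma, adjusted p = 0.0219). With median GC content over transcripts RPA1 was not called (-0.058, limma, adjusted p = 0.488). LIG1 lost its call when the replicate block was added to the removal (limma, adjusted p = 0.0801).

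In deoxynucleotide supply, RRM1 was the single gene called. It measured 14.7, 16.0 and 15.3 FPKM with Bmi1 shRNA, against 7.61, 7.29 and 6.48 FPKM in controls, a ratio of means of 2.15 (log2 fold change 1.01, SE 0.07; limma, adjusted p = 0.00028). RRM2, the small subunit whose level limits the reductase in cycling cells, was split among the Bmi1 shRNA libraries. It measured 9.81, 20.4 and 19.5 FPKM with Bmi1 shRNA, against 10.5, 12 and 11.4 FPKM in controls (log2 fold change 0.45, SE 0.26; limma, adjusted p = 0.176). Bmi1 shRNA replicate 1 lay below every control and the other 2 above, and without that library RRM2 was called (0.77; limma, adjusted p = 0.00243). TYMS, which makes thymidylate, averaged 32.3 ± 1.10 FPKM with Bmi1 shRNA and 35.3 ± 0.973 FPKM in controls, TK1, the salvage kinase for thymidine, 147 ± 6.23 and 154 ± 3.20 FPKM, and DUT, which removes dUTP, 24.2 ± 0.940 and 23.1 ± 1.27 FPKM (SD, n = 3 each). None of these was called in the deposited values. TYMS was called lower with libraries scaled to one total or one upper quartile (limma, adjusted p = 0.0223 and 0.0358). TK1 was called lower with quantile normalization (limma, adjusted p = 0.00621). In the values without the GC content and length trend, RRM1 was called (0.80), and TYMS and DUT were called lower (-0.18 and -0.17). With median GC content over transcripts TYMS was not called (0.017, limma, adjusted p = 0.796).

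**Figure D3:**
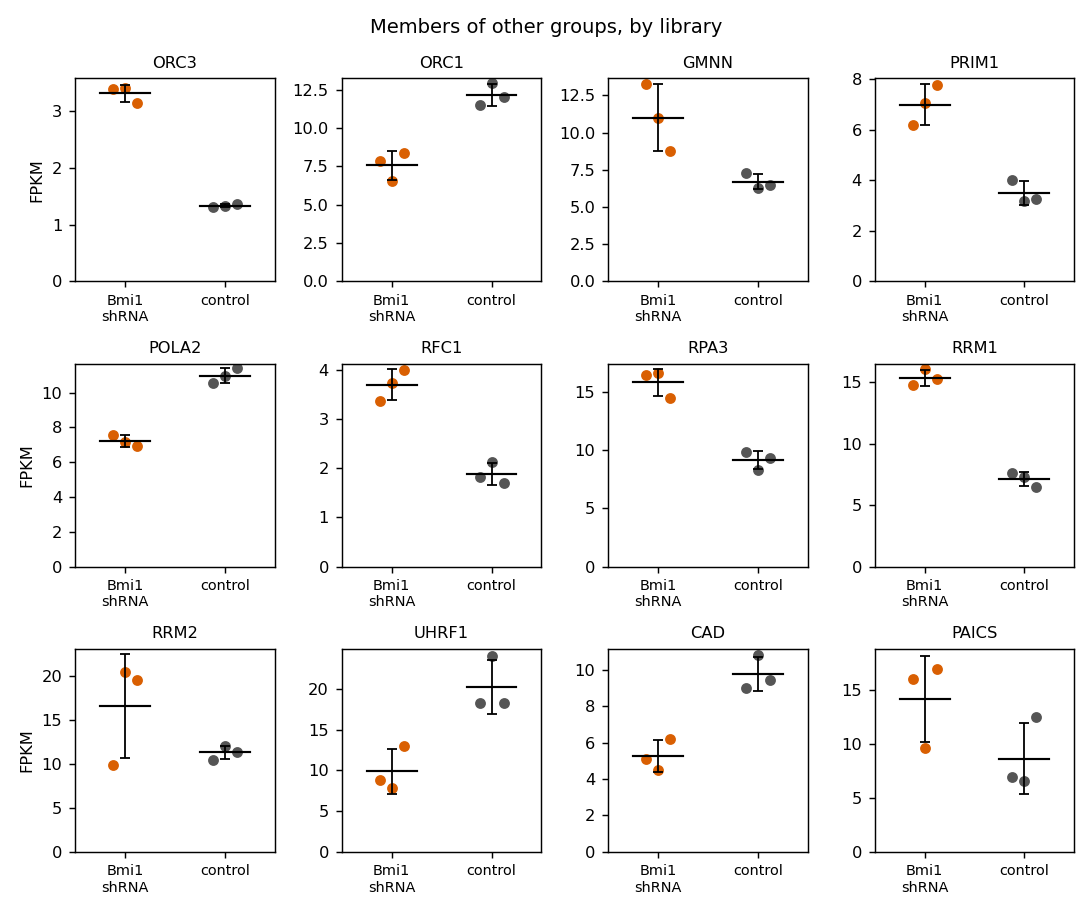
FPKM (vertical axis, from 0) of 12 members from groups other than the ring, in 3 Bmi1 shRNA and 3 control libraries; points are libraries, lines and bars are the mean and SD. RRM2 and PAICS overlap between the groups, at 9.81 to 20.4 against 10.5 to 12 FPKM and 9.60 to 16.9 against 6.51 to 12.4 FPKM.

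Of the 7 pyrimidine and purine genes among the members, 4 fell, 3 were not called and none rose. Over all tested genes 28.5% fell and 28.6% rose. Other genes of these pathways, given further on, rose. CAD, which carries out the opening steps of pyrimidine synthesis, measured 5.10, 4.48 and 6.20 FPKM with Bmi1 shRNA, against 9.02, 10.8 and 9.46 FPKM in controls (log2 fold change -0.79, SE 0.12; limma, adjusted p = 0.00202). CTPS1, which makes CTP, fell to 8.71 ± 0.790 FPKM with Bmi1 shRNA, against 11.6 ± 1.3 FPKM in controls. UMPS, which makes UMP, was not called at 6.01 ± 0.507 and 5.94 ± 0.389 FPKM (SD, n = 3 each). Among purine genes GART measured 7.54, 7.32 and 7.49 FPKM with Bmi1 shRNA, against 9.09, 9.42 and 9.58 FPKM in controls (log2 fold change -0.29, SE 0.05; limma, adjusted p = 0.00378). ATIC, of the closing steps, fell to 41.3 ± 3.09 FPKM with Bmi1 shRNA, against 47.8 ± 1.09 FPKM in controls (SD, n = 3 each). IMPDH2, on the branch to GTP, measured 55.8, 55 and 58.2 FPKM with Bmi1 shRNA, against 61.6, 61.3 and 61.0 FPKM in controls, with no overlap but no call (limma, adjusted p = 0.067).

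PAICS, of the middle steps, varied among libraries of one group. It measured 16.0, 9.60 and 16.9 FPKM with Bmi1 shRNA, against 6.96, 6.51 and 12.4 FPKM in controls (log2 fold change 0.67, SE 0.29; limma, adjusted p = 0.0866). Bmi1 shRNA replicate 2 lay below control replicate 3, and PAICS was called without either (limma, adjusted p = 0.0354 and 0.0241). CTPS1 lost its call without Bmi1 shRNA replicate 2 (limma, adjusted p = 0.0514), ATIC without any 1 library but Bmi1 shRNA replicate 2 (0.0651 to 0.0964), and IMPDH2 was called without Bmi1 shRNA replicate 3 (0.0463). IMPDH2 was also called lower with total scaling, upper quartile scaling and quantile normalization (limma, adjusted p = 0.0157, 0.0220 and 0.00559). Over the 12 nucleotide genes 1 rose and 4 fell, at a median of -0.09 and a median GC content of 47.6%. The share that fell, 33.3%, was near the 28.5% of all tested genes. The share that rose was 8.33%, against 28.6%. Net of the GC content and length trend, 1 was higher and 4 lower, and CAD (-0.35) and GART (-0.23) were called lower there while CTPS1 and ATIC were not called (limma, adjusted p = 0.121 and 0.316). With median GC content over transcripts ATIC was called lower (-0.29, limma, adjusted p = 0.0136), and CTPS1 was not called (-0.22, limma, adjusted p = 0.104).

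Both genes that keep DNA methylation through replication fell, at a median log2 fold change of -0.84, the lowest of the 10 groups. UHRF1 measured 8.77, 7.87 and 13.0 FPKM with Bmi1 shRNA, against 18.3, 24.1 and 18.4 FPKM in controls (log2 fold change -0.98, SE 0.19; limma, adjusted p = 0.0056). DNMT1, the maintenance methyltransferase, measured 6.10, 5.57 and 7.09 FPKM with Bmi1 shRNA, against 9.88, 11.3 and 10.9 FPKM in controls (log2 fold change -0.70, SE 0.09; limma, adjusted p = 0.00147). The groups did not overlap for either. Their ratio, DNMT1 over UHRF1, was 0.649 ± 0.0912 with Bmi1 shRNA and 0.535 ± 0.0634 in controls (SD, n = 3 each). Both remained called with the trend removed (-0.65 and -0.31), but UHRF1 was not when the replicate block was added (limma, adjusted p = 0.0591).

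Of 4 functions set side by side, the helicase group had a median log2 fold change of -0.31, nucleotide supply lay at -0.09, the polymerases at 0.04 and the clamp and loader at 0.20, against -0.02 over all tested genes. Within each group the range was wide: from -0.80 to 1.10 among helicase genes, -0.79 to 1.01 in nucleotide supply, -0.55 to 0.83 among polymerases and -0.25 to 0.71 in the clamp group. After removal of the trend, the medians were -0.24, -0.11, -0.11 and -0.03. The differences between groups were not tested, since the genes of a group are not replicates.

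Direction went with the base composition of the transcript, as it did over all genes. The 14 members that rose had transcripts of 39.1 to 45.9% GC (median 42.3%), the 23 that fell 45.3 to 65.0% (median 54.5%), and the 18 not called 40.1 to 62.8% (median 45.7%). PCNA at the low end of those that fell and RPA3 and RFC4 at the high end of those that rose were where the ranges met. Across the 55 members Spearman's rho of log2 fold change with GC content was -0.785, and across 10225 tested genes with a known transcript it was -0.473. These are descriptions across genes that share the same 6 libraries. Level went along as well: rho of fold change with mean FPKM was -0.415 over the members and -0.0294 over all tested genes, and mean FPKM was higher at higher GC content over the members (rho 0.624). The members that rose had a median level of 4.01 FPKM, and those that fell 15.1 FPKM.

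**Figure D4:**
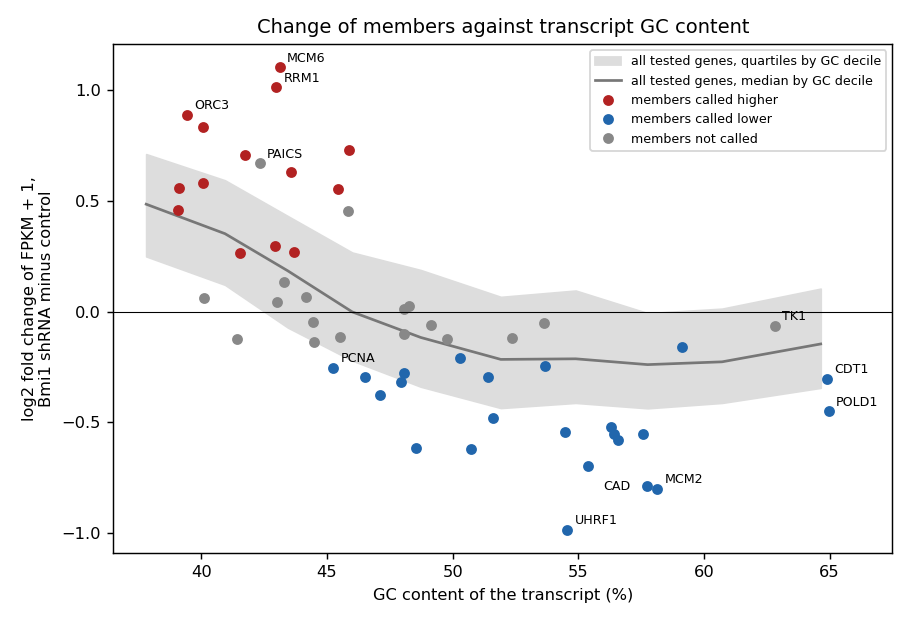
Log2 fold change (vertical axis, Bmi1 shRNA minus control) of the 55 members against GC content of the transcript in percent (horizontal axis), with the median and quartiles of all tested genes in 10 equal groups by GC content in grey. Members that rose lie at or below 45.9% GC, those that fell at or above 45.3%.

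Removing the trend of fold change with GC content and length from each library left 7 members higher and 22 lower, 12.7% and 40.0%, where 19.1% of tested genes were higher and 20.5% lower. Of the 14 that rose, 6 were still called higher (POLA1 among them), and of the 23 that fell, 16 were still called lower. None was called in the opposite direction. GINS1, ORC2, ORC6, RFC5, TYMS and DUT were called lower and RPA1 higher there, and were not called in the deposited values. Using the median GC content and length over a gene's transcripts, 7 were higher and 24 lower (21.9% and 24.9% of tested genes). POLE2, which rose in the deposited values, was called lower there (log2 fold change -0.36, limma, adjusted p = 0.00914), and ORC6, RFC5, TYMS and RPA1 were not called. CDT1, GINS4, POLE and ATIC were called lower there and PRIM1 and RFC4 higher, though not in the first version. MCM3 and POLA1 lost the call they had in the first version. CDC6, not called in the deposited values, was called lower there (-0.33, limma, adjusted p = 0.0367). Under both versions ORC3, MCM6, RFC1, RPA3 and RRM1 were called higher, and 15 members were called lower: ORC1, MCM2, MCM4, MCM5, MCM7, CDC45, GINS3, POLA2, POLD1, PCNA, LIG1, UHRF1, DNMT1, CAD and GART. Of these, CDC45, GINS3, POLA2, POLD1, LIG1 and UHRF1 lost their call when the replicate block was added to the first version (limma, adjusted p = 0.0514 to 0.087). How many of all called genes kept their call under these versions was not counted. The removal would also take out a real change that tracked GC content and length.

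**Figure D5:**
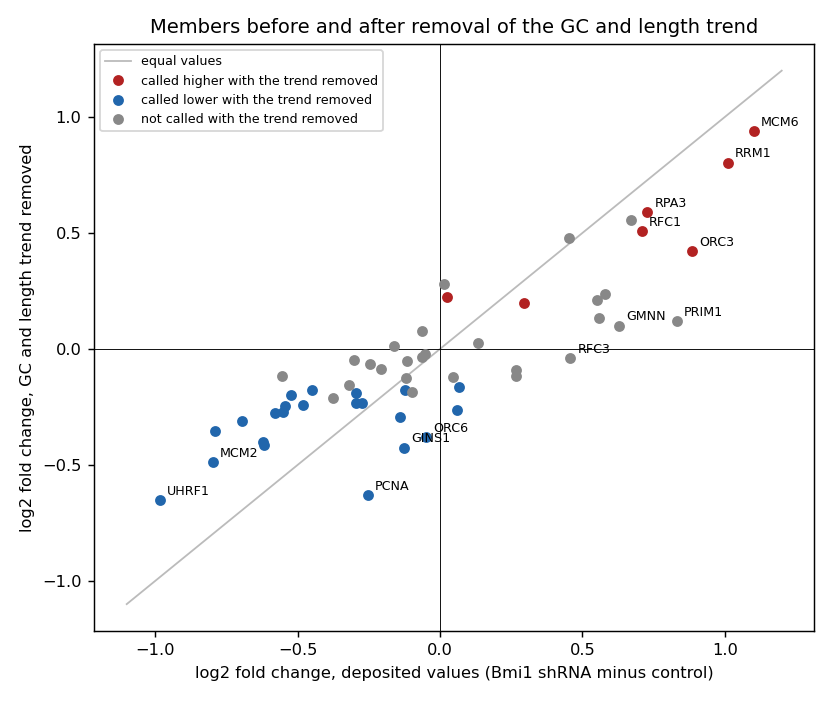
Log2 fold change of each member in the deposited values (horizontal axis) and with the trend of GC content and transcript length removed (vertical axis); colour gives the call after removal, and the line marks equal values. MCM6 (1.10 and 0.94) and RRM1 (1.01 and 0.80) stay high, and PCNA moves from -0.25 to -0.63.

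Other genes of the same pathways, on lists that share no member with the 55, moved in both directions too. The background to set them against was 28.6% of all tested genes rising and 28.5% falling. Once the trend was taken out, that background was 19.1% and 20.5%. In the deposited values the share called higher was above background for the replisome and nucleotide lists. It was below background for the chromatin assembly and G1 to S lists. None of these lists was tested as a set. Of 20 tested replisome genes (of 25 listed) 11 rose, 6 fell and 3 were not called, at a median of 0.24 (8 higher and 5 lower with the trend removed; median GC content 45.6%). RNASEH2C, a subunit of the nuclease that removes RNA from DNA, averaged 12 ± 0.453 FPKM with Bmi1 shRNA and 5.91 ± 0.610 FPKM in controls. ORC4, another ORC subunit, which reached a mean of 1 FPKM only through the Bmi1 shRNA libraries, averaged 1.78 ± 0.206 and 0.661 ± 0.0432 FPKM, and TOPBP1, a scaffold in helicase activation, 4.74 ± 0.331 and 2.51 ± 0.217 FPKM (SD, n = 3 each). Of 27 tested nucleotide genes (of 28) 12 were called higher and 4 fell, at a median of 0.23 (5 higher and 4 lower with the trend removed, median GC content 47.6%). RRM2B, among those called higher, reached a mean of 1 FPKM only through the Bmi1 shRNA libraries. PFAS, a purine synthesis enzyme, fell to 1.95 ± 0.0867 FPKM with Bmi1 shRNA, against 4.61 ± 0.516 FPKM in controls, while ADSS2, on the branch to AMP, rose to 15.9 ± 0.506 FPKM, against 10.8 ± 0.246 FPKM, and the nucleoside diphosphate kinase NME1, whose close paralog NME2 could share its reads, rose to 149 ± 3.92 FPKM, against 102 ± 6.90 FPKM (SD, n = 3 each).

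Of 8 tested chromatin assembly genes (of 9) 2 rose and 3 fell (1 and 1 with the trend removed; median log2 fold change -0.10, median GC content 47.5%). HAT1, which acetylates new histone H4, rose to 6.49 ± 0.889 FPKM with Bmi1 shRNA, against 2.30 ± 0.170 FPKM in controls, and the histone chaperone ASF1A to 4.47 ± 0.318 FPKM, against 2.12 ± 0.0925 FPKM. CHAF1A, the large subunit of chromatin assembly factor 1, fell to 7.71 ± 0.779 FPKM, against 12.5 ± 0.336 FPKM (SD, n = 3 each). Of 20 tested regulators of the G1 to S step (of 21) 3 rose and 7 fell (2 and 8 with the trend removed; median log2 fold change -0.10, median GC content 46.3%). CCNA2, the cyclin of S and G2 phase, rose to 15.3 ± 0.325 FPKM with Bmi1 shRNA, against 9.75 ± 0.382 FPKM in controls. CDC25A, the phosphatase that activates CDK2, fell to 5.51 ± 0.163 FPKM, against 8.60 ± 0.177 FPKM, and CDK2 itself fell to 6.83 ± 0.808 FPKM, against 11.0 ± 0.230 FPKM (SD, n = 3 each). CDKN2A, the BMI1 target named above, rose to 42.0 ± 2.22 FPKM with Bmi1 shRNA, against 31.6 ± 1.57 FPKM in controls (SD, n = 3 each). Its log2 fold change was 0.40 (limma, adjusted p = 0.00273), and 0.31 with the trend removed (limma, adjusted p = 0.00465). Its part in the changes of the members was not tested. For the other genes named so far from these 4 lists, limma's adjusted p lay between 0.00037 (ASF1A) and 0.00155 (CDK2).

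How reads were given to overlapping genes limits some of these values. In GENCODE 29, 24 of the 55 members share exon bases with another gene, and the strandedness of the counting is not stated by the labels or the file. Among them are MCM7 with AP4M1 (392 bases), TYMS with ENOSF1 (967) and FEN1 with TMEM258 (166), whose partners lie on the opposite strand, and PRIM1 with NACA on the same strand (33). Pseudogenes named after them exist for 11 members, among them DUT (8), PAICS (7), and PCNA, RPA2 and RRM2 (3 each), so reads of these could have been split. The values of these members are uncertain to that extent.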

How the data were processed

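Poly(A) RNA of 6 QBC-939 cultures, 3 with Bmi1 shRNA and 3 with scrambled shRNA, was sequenced as paired ends, per the labels' protocols. The authors deposited 1 table of FPKM per gene and library; columns were matched to libraries by name. Bowtie 0.12.2, HISAT2 2.0 and StringTie 1.3.0 are named, with no role, in the submitters' processing notes. The one build named there, mm8, is a mouse build while the organism is human, so the build behind the FPKM values is not settled. Read depth is unknown and intervals that need it are not given: at most 5.09% of low values shared a common step between libraries, so whole reads were not recovered and no count test was run. Strandedness is not stated by the labels or the file.

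Genes with a mean of at least 1 FPKM (11016 rows) were tested on log2(FPKM + 1) with limma 3.58.1 in R 4.3.3 (moderated variance with a mean trend, no covariate, Benjamini-Hochberg adjustment, threshold 0.05). GC content and length came from GENCODE 29 transcripts and were known for 92.8% of tested rows; their trend was removed from each library as an alternative. Promoters came from RefSeq (GRCh38.p14); 48 of 55 members matched. The test was checked on simulated data first. Members, gene lists, groups and tests were chosen with earlier results of these data known. Named genes were all 55 members, and up to 3 called genes of smallest p in each other list. CDKN2A, RRM2B and the promoter of MCM2 were added after their values were seen. Alternatives were the pseudocount, the filter, 3 scalings, a variance prior without a trend, the replicate block, the GC content trend and leaving out each library; the version with median GC content was added after seeing the data.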

Additional observations from a re-analysis of the deposited data

How the results depend on the processing

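Of the 37 members called, 30 kept their call under every alternative without a GC content step that tested them (11 higher, 19 lower; ORC3, CDC7, DBF4, RFC1, GINS4 and POLE were not tested at a minimum mean of 5 FPKM). Under all 17 alternatives, or for RFC1 and ORC3 the 16 that tested them, 13 kept it (RFC1, RPA3, ORC3, MCM6 and RRM1 higher; MCM2, MCM4, MCM5, MCM7, ORC1, DNMT1, CAD and GART lower). How many of all called genes kept their call was not counted, so members cannot be set against them in this. BMI1 stayed lower under the 16 alternatives that tested it, the 5 FPKM minimum being the exception. Members called higher numbered 7 with a minimum mean of 5 FPKM, 7 after removal of the GC content and length trend, 6 with that and a replicate block, and 7 with median GC content; members called lower numbered 14 with trend removal and block. Over all tested genes, 1631 were called higher and 1847 lower at 5 FPKM, 1957 higher with the trend removed, and 1573 higher and 1568 lower with the block as well. Scaling to one total gave 3135 higher and 4042 lower, and shifted the median of all genes to -0.07.

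The helicase median was -0.39 with a pseudocount of 0.1, -0.39 at 5 FPKM, -0.44 with total scaling, -0.34 with upper quartile, -0.39 with quantile normalization, -0.24 with the trend removed (with or without block) and -0.26 with median GC content. The polymerase median was -0.31 at 5 FPKM, -0.014 with total scaling, -0.018 with quantile normalization, -0.11 with the trend removed (with or without block) and -0.21 with median GC content. The clamp median was -0.051 at 5 FPKM, 0.14 with total scaling, -0.032 with the trend removed (with or without block) and 0.13 with median GC content. The nucleotide median was -0.18 with total scaling, -0.13 with upper quartile, -0.20 with quantile normalization and 0.0078 with median GC content. Leaving out 1 library gave medians of -0.33 to -0.28 for the helicase, -0.056 to 0.13 for the polymerase, 0.14 to 0.31 for the clamp and -0.11 to -0.072 for the nucleotide group.

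Among members called in the deposited values or in the alternative, fold changes took the opposite sign with the trend removed, with or without block, for ORC2 (-0.26), PRIM2 (-0.11), POLD2 (0.014), POLE2 (-0.090) and RFC3 (-0.040), and without block for DUT (-0.17). With median GC content ORC2 (-0.43), PRIM2 (-0.16), POLE2 (-0.36) and DUT (-0.18) did; members called in neither, such as GINS2 and POLD3, also changed sign. With no filter on low values POLA1, PRIM2, POLD2, POLE2, PCNA and ATIC lost their call. Scaling to one total added calls lower for GINS1, RFC5, TYMS and IMPDH2, upper quartile for TYMS and IMPDH2, and quantile normalization for TK1 and IMPDH2. POLE2 lost its call under each of these scalings, and PRIM2 with quantile normalization. Apart from these GC content steps, the cause was not tested.

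The labels state no pairing of same-numbered libraries. Over all tested genes, deviations of same-numbered libraries correlated at 0.00374, -0.0791 and -0.0234, and no Bmi1 shRNA library correlated best with its own number. Such correlations cannot exclude shared handling that acted on a part of the genes. With the replicate block 12 members were called higher and 22 lower; POLA1, PRIM2, POLD2 and POLE2 lost their call and PAICS gained one (limma, adjusted p = 0.0216). Read depth, which limits the low members most, is unknown.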

Other observations

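MYC, a transcription factor that many nucleotide synthesis genes respond to, was singled out after its values were seen. It measured 23.1, 10.5 and 1.59 FPKM in Bmi1 shRNA replicates 1 to 3, against 17.4, 1.89 and 1.57 FPKM in control replicates 1 to 3 (log2 fold change 0.80; limma, adjusted p = 0.537), so its spread within each group was wider than the difference between them.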
